A study of Mus musculus with 9 samples.

Results

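The transcripts described here encode lysosomal enzymes and membrane proteins, measured in whole testes of Tmem203 null and wild type (WT) mice. The list held 47 genes. A gene was taken as measured when at least 1 probe set, a group of short oligonucleotides that reads 1 transcript, was annotated to it and to no other gene, and 46 of the 47 genes met this, out of 18193 genes on the array. Cd63 was not analysed here. Each gene was represented by its brightest probe set, judged by the mean over all 9 arrays. By role the measured genes were 11 proteases, 15 glycosidases and sulfatases, 9 genes of lipid handling, 6 membrane proteins, 4 genes of the proton pump and its accessory subunit, and the transcription factor gene Tfeb. The samples were 5 testes lacking Tmem203, a gene for a calcium-regulating membrane protein of the endoplasmic reticulum, and 4 WT testes, all from C57BL/6J mice aged 24 weeks. The tissue had received no treatment, and total RNA of each sample went onto an Affymetrix whole-genome mouse array of its own. In the null allele a selection cassette replaced the start of translation with part of the 5′ leader and was then taken out with Flpe recombinase, so the gene is inactive in every cell of the animal and not in a single testicular cell type. Left and right testes were collected separately, and the labels do not say whether each array is another animal, so the p-values cover the spread among samples and not, with certainty, among animals. The values are log2 signals. A gene passed the test at an adjusted p under 0.05 from limma, and a log2 fold change is null minus WT.

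Lysosomes break down protein, sugar chains and lipid at acid pH. A vacuolar proton pump acidifies them, soluble hydrolases do the cutting, and heavily glycosylated membrane proteins line the inside of the limiting membrane. In the testis they are known above all from Sertoli cells, which engulf dying germ cells and the residual bodies that spermatids shed, from Leydig cells, which take cholesterol from lysosomes for steroid synthesis, and from resident macrophages.

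Tmem203 itself lay between 9.67 and 9.93 in the WT samples and between 9.06 and 9.13 in the null samples, so that every null sample was lower, by -0.70 on the log2 scale (adjusted p = 2.87e-04 from limma, standard error 0.06). No source used here places its probe set inside or outside the deleted stretch, and the remaining signal is therefore no measure of transcript from the allele. Array medians lay between 6.96 and 7.05. WT replicate 3 stood apart from the other WT samples, at 33.2 on the second principal component (21.9% of the variance) where the others lay between -24.5 and -5.96. On the first component (36.7%) WT replicate 3 lay at -37.4, the other WT samples between -28.1 and -10.8, and the null samples between 12.7 and 26.0. Over all probe sets it was thus not closer to the null samples on that component. Values without WT replicate 3 are given beside the main results below. Null replicate 1 lay at 16.1 on the second component, and the other null samples between -4.32 and 4.26. Its omission is given below for the count, the median and the calls that were lost, and not for each estimate. As a measure of RNA integrity, the 3′ signal of the control transcript Gapdh exceeded its 5′ signal by 0.92 to 0.95 in WT and by 0.81 to 0.90 in null samples on the log2 scale, without overlap, while for beta-actin the ranges overlapped, at 0.56 to 0.65 and 0.54 to 0.62. The part of RNA integrity in the results was not tested. Since whole testes were measured, fewer cells of a type and less RNA per cell cannot be told apart.

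Of the 46 lysosomal genes, 9 passed with higher signal in null testes, 0 passed with lower signal and 37 did not pass. At an unadjusted p under 0.05 from limma, 20 were higher, against 14.3% of all genes, and 1 was lower, against 14.8%. Among all genes 5.82% rose and 4.82% fell, and among the lysosomal genes 19.6% rose. This list, like the wider and marker lists below, was chosen with earlier results of these data known. The shares therefore describe the list, and no test was run over it. The genes that rose were the protease genes Lgmn, Tpp1 and Ctsb, the sulfatase gene Ids, the lipid-handling genes Psap, Lipa and Asah1, and the membrane protein genes Scarb2 and Lamp2, of which Lamp2 fell on another probe set. The changes were small: on the brightest probe sets Lgmn alone passed 1.5-fold, a size that 0.995% of all genes reached upward. The log2 fold change was above 0 in 40 of the 46 genes, against 44.5% of all genes, and its median was 0.15, against -0.02 over all genes. In 9 lysosomal genes the lowest null sample exceeded the highest WT sample, which held for 7.81% of all genes. These were 7 of the genes that passed, with Ctsd and Gm2a, which did not. In Idua and Atp6v1a, 2 genes, the highest null sample was under the lowest WT sample, which held for 8.81% of all genes, and neither passed the test.

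The count depended on single samples. Without WT replicate 3, the count was 15 genes (6.87% of all genes rose), 3 of them past 1.5-fold, and the median log2 fold change was 0.19. It was 5 without WT replicate 1, 2 or 4, where 4.14%, 3.40% and 4.38% of all genes rose, and 5 without null replicate 3 or 4, where 3.81% and 3.72% did. It was 4 without null replicate 1 or 5, where 3.36% and 3.18% of all genes rose, and 7 without null replicate 2, where 5.01% did. The share over all genes was thus also below 5.82% in each of these 8 analyses, and above it without WT replicate 3. Without WT replicate 4, 2 genes passed 1.5-fold. The share of all genes past 1.5-fold was not counted with a sample left out. The counts past 1.5-fold without WT replicate 3 or 4 therefore cannot be set beside it. Without null replicate 1 the median log2 fold change was 0.13. Lgmn, Ids, Psap and Scarb2 passed whichever sample was left out.

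**Figure D1:**
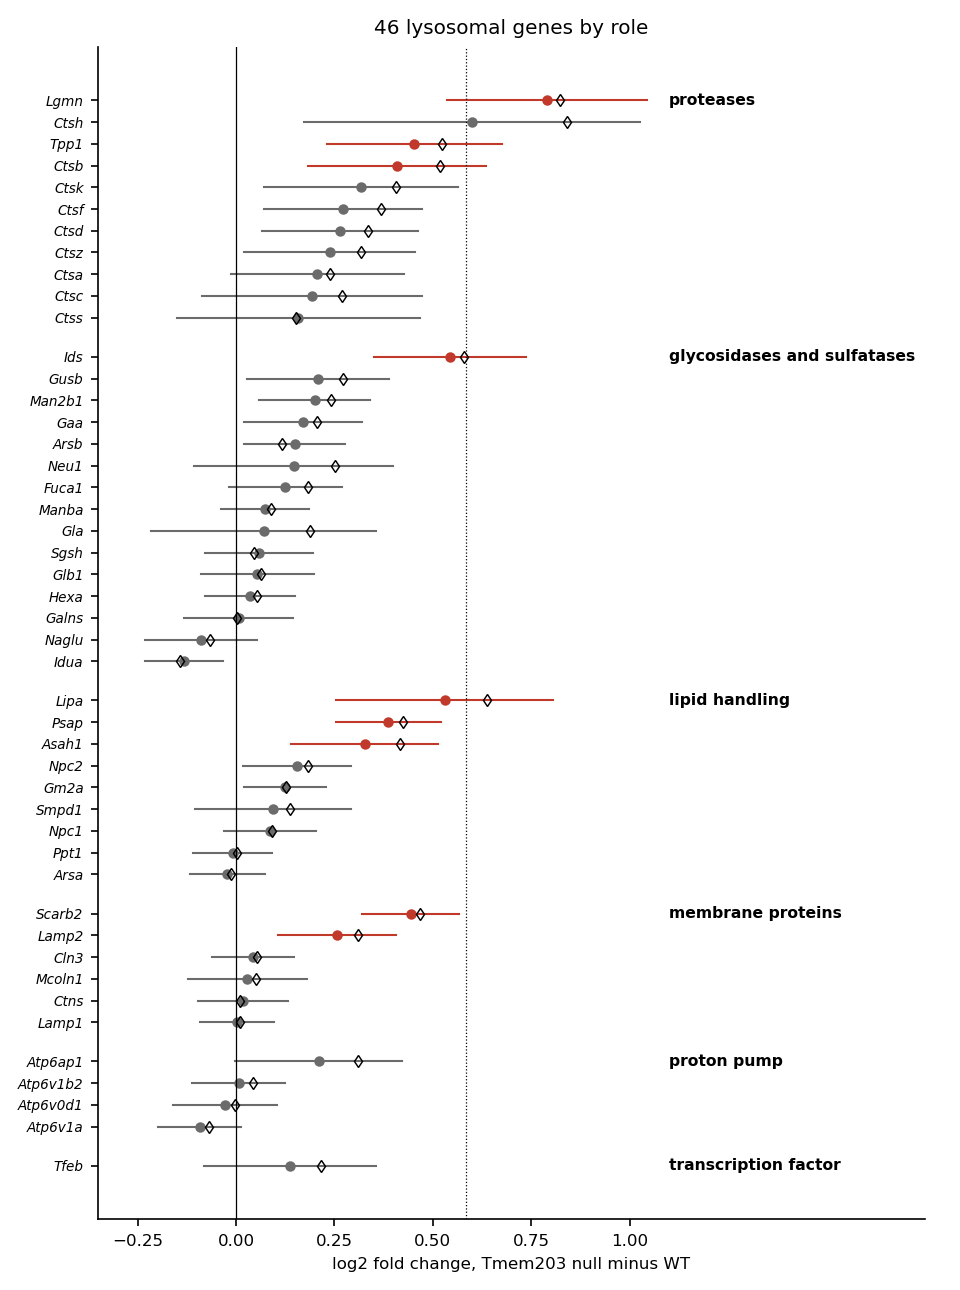
Change in log2 signal between the genotypes (x axis, null minus WT) of the 46 measured lysosomal genes (rows), grouped by role. Points with bars are the estimate with its 95% confidence interval, red for the 9 genes that passed an adjusted p under 0.05 from limma and grey for the 37 others; open diamonds are the estimate without WT replicate 3, and the dotted line marks 1.5-fold. All 11 proteases lie to the right of 0, while the proton pump genes lie between -0.09 and 0.21.

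Proteases were the role group with the highest median log2 fold change, 0.27 over 11 genes, and all 11 estimates were above 0. Of these genes 3 rose, and 7 did without WT replicate 3.
Lgmn encodes legumain, the asparaginyl endopeptidase that cuts other lysosomal enzymes into their mature chains. Its log2 signal was 8.71, 8.59, 8.79 and 8.69 in WT replicates 1 to 4 and 9.76, 9.26, 9.42, 9.26 and 9.73 in null replicates 1 to 5. The groups did not overlap, and the null samples spread more widely than the WT samples. Lgmn rose by 0.79 (standard error 0.11, adjusted p = 0.00323 from limma), which is 1.73-fold with a 95% confidence interval of 1.45 to 2.06, and by 0.82 without WT replicate 3.
Tpp1 encodes tripeptidyl peptidase, which removes tripeptides from protein ends and is deficient in a form of neuronal ceroid lipofuscinosis. Its signal was 9.48, 9.15, 9.63 and 9.43 in WT and 9.96, 9.74, 9.79, 9.83 and 10.05 in null samples, again without overlap. It rose by 0.45 (standard error 0.10, adjusted p = 0.0232 from limma), or by 0.52 without WT replicate 3, and did not pass without null replicate 1 (0.0597) or null replicate 5 (0.0567).
Ctsb encodes cathepsin B, a cysteine protease. WT replicates 1, 2 and 4 gave 11.46, 11.55 and 11.48, and WT replicate 3 gave 11.93, inside the null range of 12.15, 11.87, 11.94, 12.00 and 12.11. The groups thus overlapped through that sample alone. Ctsb rose by 0.41 (standard error 0.10, adjusted p = 0.0375 from limma), by 0.52 without WT replicate 3 (adjusted p = 0.00408), and lost its call in 7 of the 9 analyses that left out 1 sample, at adjusted p between 0.0636 and 0.105; the exceptions were those without WT replicate 3 or null replicate 2.

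Among the proteases that did not pass, Ctsh, for the aminopeptidase cathepsin H, had the largest estimate. It lay at 9.26, 9.38 and 9.44 in WT replicates 1, 2 and 4 and at 10.33 in WT replicate 3, which is within the null range of 9.98 to 10.35. The estimate was 0.60 (standard error 0.19, adjusted p = 0.0898 from limma) and 0.84 without WT replicate 3 (adjusted p = 0.00133). Here 1 WT sample looked like the null samples, and the call hung on it. Ctsk, the collagen-degrading cathepsin K, was at 0.32 (adjusted p = 0.117) and Ctsf, cathepsin F, at 0.27 (adjusted p = 0.0997). Both passed without WT replicate 3, at 0.41 and 0.37, as did Ctsd, the aspartic protease cathepsin D, at 0.34 (adjusted p = 0.0366) against 0.26 with all samples. The remaining protease genes, Ctsz, Ctsa, Ctsc and Ctss, lay with Ctsd between 0.16 and 0.26.

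**Figure D2:**
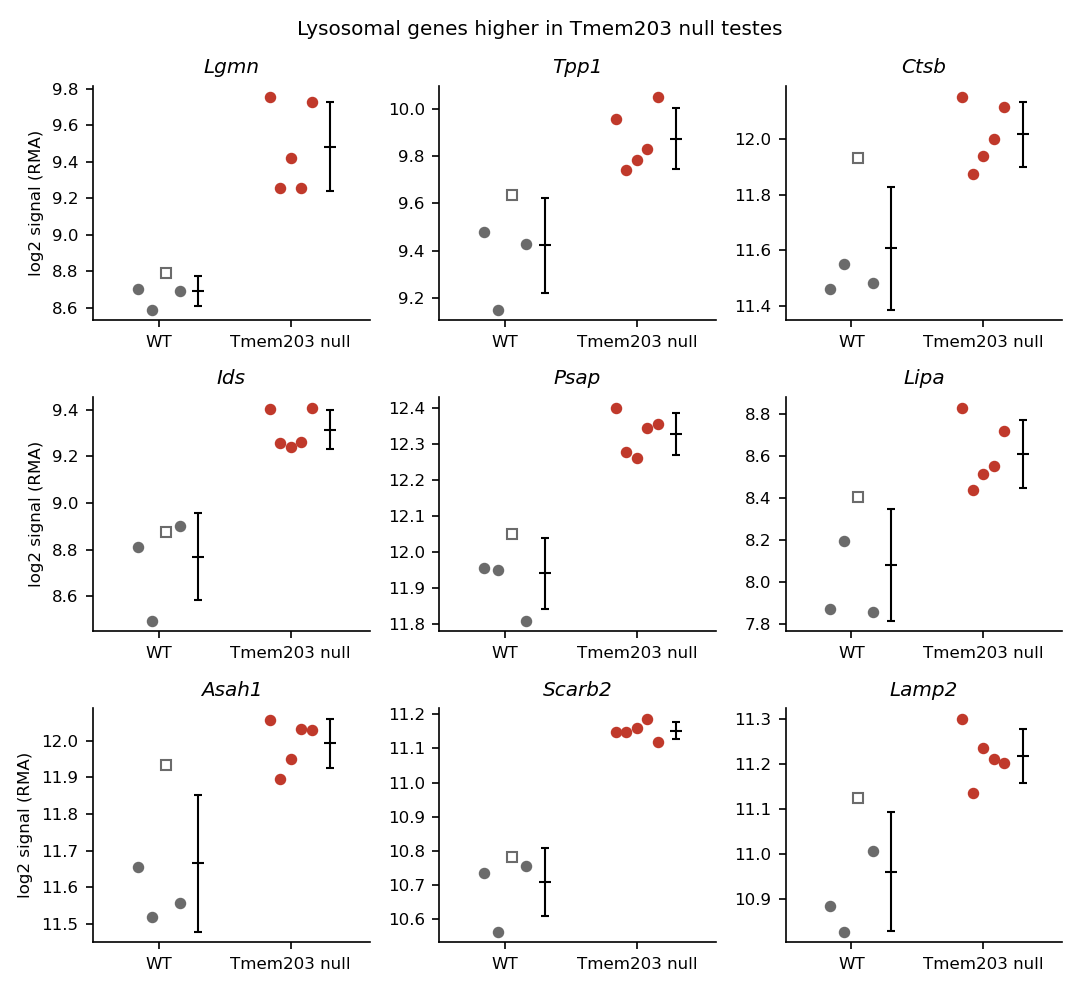
Log2 signal (RMA, y axis, a separate range per panel) of the 9 lysosomal genes that passed the test. Grey points are the 4 WT testes and red points the 5 null testes, and the bar beside them is mean and SD. The open square is WT replicate 3, the highest WT sample in 8 of the 9 panels; in Ctsb and Asah1 it lies within the null range.

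Of the 15 glycosidases and sulfatases, 1 gene rose, 0 fell and 14 did not pass, with a median log2 fold change of 0.07, or 0.12 without WT replicate 3.
Ids encodes iduronate 2-sulfatase, which starts the breakdown of heparan and dermatan sulfate. Its log2 signal was 8.81, 8.49, 8.88 and 8.90 in WT replicates 1 to 4 and 9.40, 9.26, 9.24, 9.26 and 9.41 in null replicates 1 to 5. Every null sample exceeded every WT sample, and WT replicate 2 was the lowest. Ids rose by 0.54 (standard error 0.09, adjusted p = 0.00520 from limma), or 0.58 without WT replicate 3. Idua, whose product removes iduronic acid in the step after Ids in the same pathway, lay between 10.08 and 10.17 in WT and between 9.96 and 10.01 in null samples. Those ranges did not overlap, but the difference of -0.13 (standard error 0.04, adjusted p = 0.106) did not pass, nor did that of -0.14 without WT replicate 3.
The largest estimates that did not pass were those of Gusb (beta-glucuronidase), at 0.21, of Man2b1 (acid alpha-mannosidase), at 0.20, and of Gaa (acid alpha-glucosidase), at 0.17, with adjusted p of 0.155, 0.0876 and 0.161 from limma. Without WT replicate 3, Man2b1 passed at 0.24 (adjusted p = 0.0423), and Gusb and Gaa were at 0.27 and 0.21 without passing. The other 11 genes lay between -0.13 and 0.15. Among them Hexa, a beta-hexosaminidase subunit, was at 0.04 with a 95% confidence interval of 0.946 to 1.11 on the fold scale, and Galns, a sulfatase of keratan sulfate breakdown, at 0.01 with an interval of 0.912 to 1.11, so that changes of 1.5-fold lay outside both intervals.

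Of the 9 genes of lipid handling, 3 rose, 0 fell and 6 did not pass, with a median of 0.12 with all samples and of 0.14 without WT replicate 3.
Psap encodes prosaposin, the precursor of the saposins, small proteins that present sphingolipids to their hydrolases. Its log2 signal was 11.96, 11.95, 12.05 and 11.81 in WT and 12.40, 12.28, 12.26, 12.35 and 12.36 in null samples. The groups did not overlap, and both were narrow. Psap rose by 0.39 (standard error 0.06, adjusted p = 0.00442 from limma), or 0.42 without WT replicate 3.
Lipa encodes lysosomal acid lipase, which frees cholesterol from cholesteryl esters. WT samples gave 7.87, 8.19, 8.40 and 7.85 and null samples 8.83, 8.44, 8.51, 8.55 and 8.72. WT replicate 3 came close to the lowest null sample without reaching it. The rise was 0.53 (standard error 0.12, adjusted p = 0.0300 from limma), or 0.64 without WT replicate 3 (adjusted p = 0.00923), and the call was lost in 7 of the 9 analyses without 1 sample, all but those without WT replicate 3 or null replicate 2, at adjusted p of 0.0516 to 0.0750.
Asah1 encodes acid ceramidase, which splits ceramide into sphingosine and a fatty acid. Its signal was 11.65, 11.52 and 11.56 in WT replicates 1, 2 and 4, 11.93 in WT replicate 3, and 12.06, 11.90, 11.95, 12.03 and 12.03 in null samples. As in Ctsb, WT replicate 3 alone overlapped the null samples. Asah1 rose by 0.33 (standard error 0.08, adjusted p = 0.0422 from limma), or 0.42 without WT replicate 3 (adjusted p = 0.00431), and in each of the other 8 analyses without 1 sample it did not pass, at adjusted p of 0.0515 to 0.120.
Npc2, the soluble cholesterol carrier of the lysosome, was at 0.16 (adjusted p = 0.162), Gm2a, the activator of GM2 ganglioside breakdown, at 0.12 (adjusted p = 0.142) and Smpd1, acid sphingomyelinase, at 0.09 (adjusted p = 0.575). Without WT replicate 3 they were at 0.18, 0.13 and 0.14, and none passed. In Gm2a the null samples, at 13.77 to 13.81, all exceeded the WT samples, at 13.60 to 13.73. Npc1, the membrane partner of Npc2, Arsa (arylsulfatase A) and Ppt1, which removes palmitate from proteins, lay between -0.02 and 0.09.

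Among the 6 membrane proteins 2 genes rose and 4 did not pass, and the log2 fold changes of those 4 lay between 0.00 and 0.04. The median over the 6 was 0.04, or 0.05 without WT replicate 3.
Scarb2 encodes LIMP-2, which carries beta-glucocerebrosidase to the lysosome. Its log2 signal was 10.73, 10.56, 10.78 and 10.75 in WT and 11.15, 11.15, 11.16, 11.19 and 11.12 in null samples. The null samples lay close together, all above the WT samples. Scarb2 had the smallest p among the lysosomal genes, with a rise of 0.44 (standard error 0.06, adjusted p = 0.00160 from limma), or 0.47 without WT replicate 3.
Lamp2, one of the glycoproteins that line the lysosomal membrane and a receptor of chaperone-mediated autophagy, gave 10.88, 10.83, 11.12 and 11.01 in WT and 11.30, 11.14, 11.24, 11.21 and 11.20 in null samples. The highest WT sample, replicate 3, lay just under the lowest null sample. The rise was 0.26 (standard error 0.07, adjusted p = 0.0475 from limma), or 0.31 without WT replicate 3 (adjusted p = 0.0152), and was not called in any of the other 8 analyses without 1 sample, at adjusted p of 0.0554 to 0.126. The direction of Lamp2 also depends on the probe set, since another one fell by 0.31 (adjusted p = 0.0136).
Lamp1, the close relative of Lamp2, lay between 13.54 and 13.57 in WT and between 13.52 and 13.58 in null samples. Its log2 fold change was 0.00, with a 95% confidence interval of 0.938 to 1.07 on the fold scale. Cln3, mutated in juvenile neuronal ceroid lipofuscinosis, was at 0.04, Mcoln1, a cation channel that releases lysosomal calcium, at 0.03, and Ctns, the cystine exporter, at 0.02.

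None of the 4 proton pump genes passed with all samples, and their median log2 fold change was -0.01. Atp6ap1, an accessory subunit, lay at 10.33, 10.42 and 10.29 in WT replicates 1, 2 and 4, at 10.75 in WT replicate 3 and between 10.52 and 10.78 in null samples. Its estimate was 0.21 (adjusted p = 0.221 from limma, standard error 0.10), and it passed without WT replicate 3, at 0.31 (adjusted p = 0.0257). The subunits that form the pump itself did not pass with or without that sample. Atp6v1a, the catalytic subunit, lay between 12.11 and 12.21 in WT and between 12.00 and 12.11 in null samples, at -0.09 (standard error 0.05, adjusted p = 0.277), without overlap of the groups. Atp6v0d1, of the membrane sector, was at -0.03 and Atp6v1b2, a subunit beside the catalytic one, at 0.01, with 95% confidence intervals of 0.895 to 1.08 and 0.926 to 1.09 on the fold scale.

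**Figure D3:**
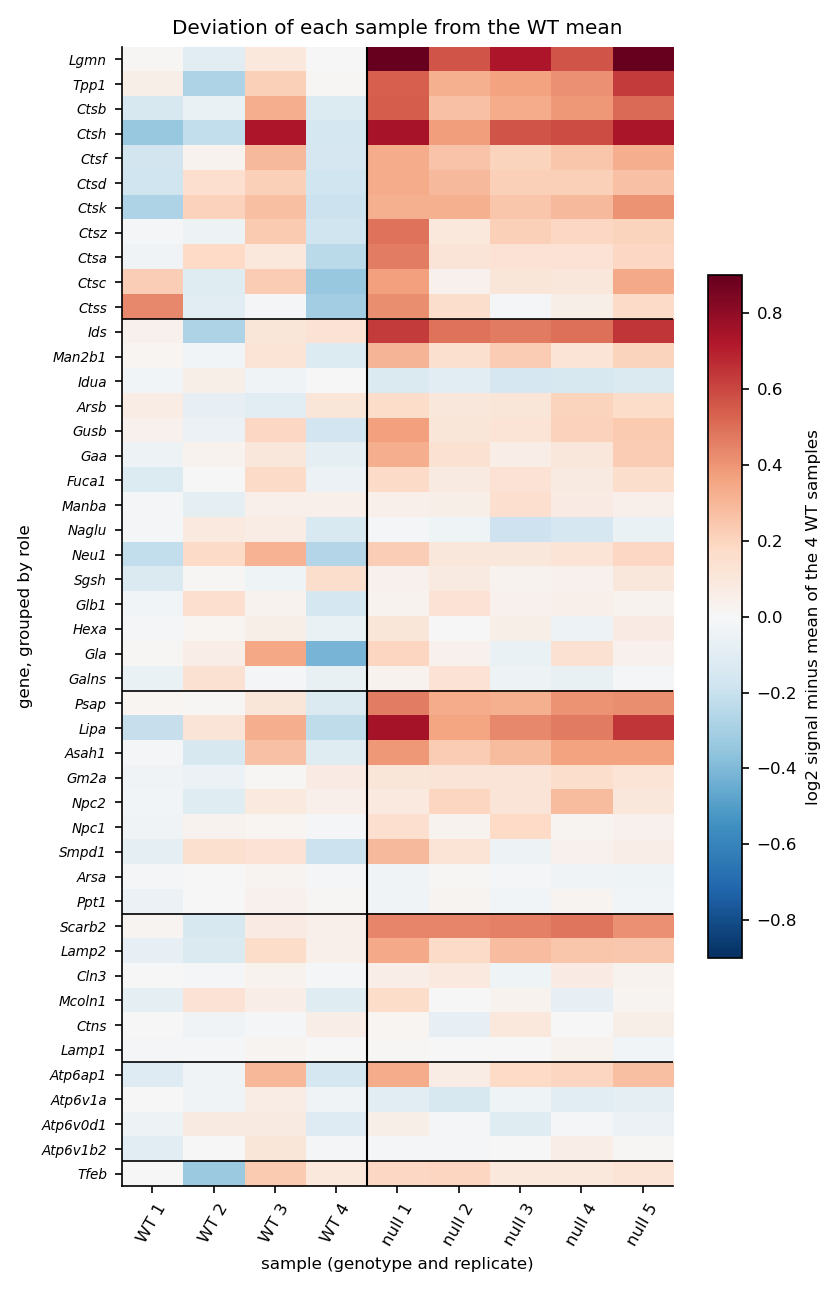
Log2 signal of each lysosomal gene (rows, grouped by role from proteases at the top to Tfeb at the bottom) in each sample (columns) minus the mean of the 4 WT samples, red for higher and blue for lower. WT replicate 3 carries red in many of the rows that are red in the null samples, and null replicate 1 is the highest of the 5 null samples for 25 of the 46 genes.

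The samples of 1 genotype also differed from each other over these genes together. The mean log2 signal over the 46 genes was 9.70, 9.72, 9.87 and 9.66 in WT replicates 1 to 4 and 9.99, 9.88, 9.88, 9.89 and 9.94 in null replicates 1 to 5. WT replicate 3 thus lay close to the lowest null samples. It was the highest WT sample for 31 of the 46 genes and for 8 of the 9 that passed. Null replicate 1 was the highest null sample for 25 of the 46 genes and for 6 of those 9.

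Tfeb encodes a transcription factor that switches on genes of lysosome formation through a short palindrome, CACGTG, often within the longer TCACGTGA. Its log2 signal was 6.15, 5.81, 6.38 and 6.24 in WT and lay between 6.24 and 6.34 in null samples. The groups overlapped, and the difference of 0.14 on the log2 scale did not pass (adjusted p = 0.442 from limma, standard error 0.10), nor did that of 0.22 without WT replicate 3. RefSeq promoter windows of GRCm38.p6, from 250 bases before to 50 bases after each annotated start, were at hand for 41 of the 47 listed genes. Asah1, Atp6v1b2, Ctsb, Ctsh, Galns and Npc1 had none. A gene can have more than 1 window, and it was counted when any of its windows held the motif. Both motifs read the same on either strand, and each match of the longer one counts as a match of the shorter one as well. The shorter motif was found in 15 of the 41 genes (36.6%), against 8.09% of 27025 genes with a window, and the longer one in 7 (17.1%), against 1.12%. Among the 7 genes that passed the test and had a window, Lgmn alone held the shorter motif and 0 held the longer one, whereas of the 33 measured genes that had a window and did not pass 14 held the shorter and 7 the longer one. The stretches below, 30 bases each in the direction of transcription with the motif in capitals, show the longer motif in 1 place for each of its 7 genes, then the shorter motif of Lgmn.
Ctsa: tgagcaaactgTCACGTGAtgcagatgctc
Ctsd: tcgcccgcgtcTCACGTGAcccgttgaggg
Gla: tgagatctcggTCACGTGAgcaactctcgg
Mcoln1: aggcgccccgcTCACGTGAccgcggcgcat
Cln3: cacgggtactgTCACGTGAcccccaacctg
Atp6v0d1: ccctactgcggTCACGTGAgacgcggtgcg
Atp6v1a: ttttttttaaaTCACGTGAtaggcttaacg
Lgmn: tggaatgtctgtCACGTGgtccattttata
On GRCm38.p6 these lie at chr2:164833749-164833778 on the plus strand (Ctsa), chr7:142387908-142387937 on the minus strand (Ctsd), chrX:134601182-134601211 on the minus strand (Gla), chr8:3500462-3500491 on the plus strand (Mcoln1), chr7:126583340-126583369 on the minus strand (Cln3), chr8:105566050-105566079 on the minus strand (Atp6v0d1), chr16:44139373-44139402 on the minus strand (Atp6v1a) and chr12:102439124-102439153 on the minus strand (Lgmn). The genes with the longer motif had log2 fold changes of 0.21 (Ctsa), 0.26 (Ctsd), 0.07 (Gla), 0.03 (Mcoln1), 0.04 (Cln3), -0.03 (Atp6v0d1) and -0.09 (Atp6v1a), and with all samples none of them passed. A match of letters is a description of the window and not a binding site.

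The 46 genes were covered by 102 probe sets, of which 56 were not the ones used above. Of those 56, 9 passed higher and 1 passed lower, against 4.12% higher and 3.36% lower among all probe sets of the array. For Tpp1 (0.43), Psap (0.49) and Scarb2 (0.57) the other probe set also passed and rose. Ctsb had others at 0.43 and 0.29 that passed, at 0.34 that did not (adjusted p = 0.0647 from limma), and at -0.03 with a signal under the detection limit, a log2 signal of 5 on at least 1 array. Lipa had others at 0.69 (adjusted p = 0.00325) and at 0.61 (adjusted p = 0.0625).
Gusb, which did not pass on its brightest probe set, rose by 0.57 on the other (standard error 0.10, adjusted p = 0.00650 from limma), with 5.82, 5.83, 6.00 and 6.00 in WT and 6.46, 6.70, 6.23, 6.41 and 6.64 in null samples. Ctsh was at 0.68 on its other probe set (adjusted p = 0.0566), with WT replicate 3 at 9.33 and WT replicates 1, 2 and 4 between 8.22 and 8.48.
Of the 26 genes with more than 1 detected probe set, 12 had estimates of both signs. In 10 of these, Arsb, Atp6v1b2, Cln3, Ctsa, Gm2a, Idua, Mcoln1, Neu1, Ppt1 and Sgsh, no probe set passed; Gm2a, for example, was also at 0.01 and -0.08, and Idua also at 0.14. The others were Ids and Lamp2. The call of Ids rests on a single probe set, since its other detected one was at -0.11 and 4 more, under the detection limit, were between -0.20 and 0.02, and none of these passed with or without WT replicate 3. Lamp2 rose on 3 probe sets, at 0.26, 0.42 (adjusted p = 0.0154) and 0.35 (adjusted p = 0.0322), and fell by 0.31 on the fourth (standard error 0.06, adjusted p = 0.0136), where WT samples gave 10.62, 10.59, 10.64 and 10.68 and null samples 10.23, 10.37, 10.26, 10.48 and 10.29. Both directions were free of overlap between the groups. Without WT replicate 3 the fourth probe set of Lamp2 was at -0.31 (adjusted p = 0.0239). Which transcripts of Lamp2 each probe set reads was not known here. Of the 10 other probe sets that passed, the Ctsb one at 0.29 narrowly lost its call without WT replicate 3 (adjusted p = 0.0502) and the rest kept theirs, Gusb at 0.60 among them, while Ctsh passed on its other probe set as well, at 0.92 (adjusted p = 0.00103).

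**Figure D4:**
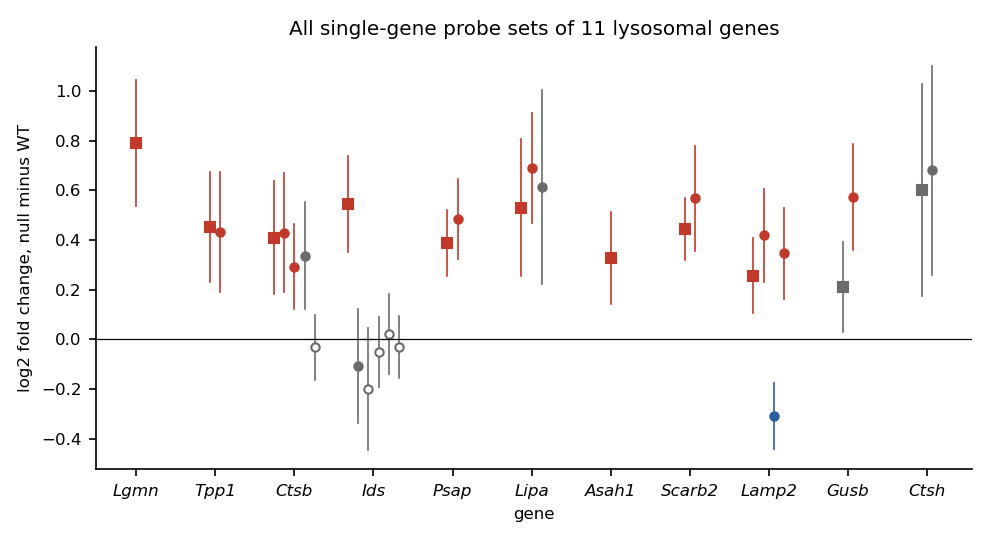
Log2 fold change (null minus WT, y axis) with its 95% confidence interval for every single-gene probe set of 11 lysosomal genes (x axis): the 9 that passed, Gusb and Ctsh. Squares are the probe sets with the highest mean, circles the others (open: signal under the detection limit); red passed higher, blue passed lower and grey did not pass. Lamp2 has 3 probe sets above 0 and 1 at -0.31, and Ids has 1 at 0.54 with the others near or below 0.

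A wider list held 90 further genes of the lysosome, of which 82 were measured; 13 rose, 3 fell and 66 did not pass, with a median log2 fold change of 0.04. The share that rose was 15.9%, against 5.82% of all genes. The wider list too was chosen with earlier results of these data known. Without WT replicate 3, 15 rose and 2 fell: Sumf1, M6pr and Ostm1 were then called, at 0.28, 0.19 and 0.42, Slc17a5 and Atp6v1c1 no longer were, and the other 14 calls stood. Without WT replicate 1, 2 or 4 or null replicate 1, 3, 4 or 5, between 6 and 8 rose and 0 or 1 fell. Of all genes 3.18% to 4.38% rose in those analyses, and 6.87% without WT replicate 3. Without null replicate 2, 9 genes of the wider list rose and 2 fell, where 5.01% of all genes rose.
Of 20 hydrolases and cofactors 4 rose. These were Ctsl (cathepsin L) at 0.33, Grn (progranulin, a partner of prosaposin) at 0.40, Hgsnat, an acetyltransferase of heparan sulfate breakdown, at 0.42, and Ctso (cathepsin O) at 0.29. Of 17 genes of delivery to the lysosome 1 rose, the endocytic receptor gene Lrp1, by 0.43. Of 23 further membrane proteins 5 rose, among them Litaf by 0.47, the amino acid exporter gene Slc36a1 by 0.43 and Glmp by 0.35, and Tmem9 fell by 0.41.
Of 17 further proton pump genes 1 rose and 2 fell. Atp6ap2, the second accessory subunit, rose by 0.28, Atp6v1c1 fell by 0.17 (adjusted p = 0.0499 from limma), and Atp6v0a4 fell by 0.44 with a signal under the detection limit on all arrays. Of 5 transcription factors and protease inhibitors 2 rose, namely Mitf, a relative of Tfeb, which lay between 8.81 and 9.13 in WT and between 9.33 and 9.59 in null samples and rose by 0.48 (standard error 0.08, adjusted p = 0.00506 from limma), and Cstb, the cathepsin inhibitor cystatin B, by 0.36. Ctsl, Grn, Litaf, Slc36a1, Mitf and Cstb passed whichever sample was left out. The other 10 calls were each lost without at least 1 sample: Lrp1, Tmem9, Glmp and Atp6v0a4 in 4 of the 9 analyses, Hgsnat in 7, Ctso, Atp6ap2 and the transmembrane protein gene Laptm4b in 8, and Slc17a5 and Atp6v1c1 in all 9.

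Some markers of the cell types named above for their lysosomes also rose in null testes. Of 10 measured Sertoli cell markers 6 rose and 0 fell, and their mean log2 signal lay between 10.98 and 11.17 in WT and between 11.25 and 11.42 in null samples. Of 7 Leydig cell markers 3 rose and 0 fell, with means of 11.09 to 11.53 in WT and 11.42 to 11.71 in null samples. Of 15 macrophage markers 3 rose and 0 fell, with means of 8.62 to 8.98 in WT and 8.96 to 9.12 in null samples. Itgam was under the detection limit. The macrophage markers did not all point the same way: 11 estimates were above 0 and 4 below, the lowest at -0.20. At an unadjusted p under 0.05 from limma, 6 macrophage markers were higher and 2 lower, against 14.3% and 14.8% of all genes. All 10 Sertoli cell and all 7 Leydig cell estimates were above 0. WT replicate 3 had the highest WT mean of the Sertoli and Leydig cell markers, at 11.17 and 11.53, and null replicate 1 the highest null mean of the Sertoli cell and macrophage markers, at 11.42 and 9.12. Sox9, the transcription factor that sets Sertoli cell fate, rose by 0.38, Hsd3b1, a steroid dehydrogenase of Leydig cells, by 0.64 and Mrc1, the mannose receptor of macrophages, by 0.41, each whichever sample was left out. The other calls in these lists were not so stable: without WT replicate 3 the macrophage markers that rose numbered 1, while the Sertoli cell markers numbered 7 and the Leydig cell markers 3. Of all genes 6.87% rose without WT replicate 3.
Few germ cell markers passed. None of 7 round spermatid markers (12.80 to 12.93 in WT, 12.71 to 12.84 in null samples) and none of 11 elongating spermatid markers (13.97 to 13.99 and 13.94 to 13.98) passed, of 10 spermatocyte markers Dmc1 fell by 0.33, and of 8 spermatogonial markers Kit rose by 0.65. None of 6 lymphocyte and 6 peritubular muscle markers passed. Of 8 endothelial markers Vwf fell by 0.37, and of 4 epididymal markers Lcn5 fell by 0.34 with a signal under the detection limit. Dmc1 and Vwf passed whichever sample was left out, Kit did not pass without WT replicate 4 or null replicate 1, 4 or 5, and Lcn5 did not in 8 of those 9 analyses. In all 13 of 92 markers rose (14.1%, against 5.82% of all genes) and 3 fell (against 4.82% of all genes). Without WT replicate 3, 12 markers rose and 2 fell, where 1249 and 789 of 18193 genes did. The number that rose was 10 without WT replicate 1 (4.14% of all genes rose), 9 without null replicate 2 (5.01%) and 8 without null replicate 3 (3.81%). It was 6 without WT replicate 2 (3.40%) or null replicate 4 (3.72%). It was 5 without WT replicate 4 (4.38%) or null replicate 5 (3.18%), and 4 without null replicate 1 (3.36%). The part of cell composition in the rise of the lysosomal genes was not tested.

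**Figure D5:**
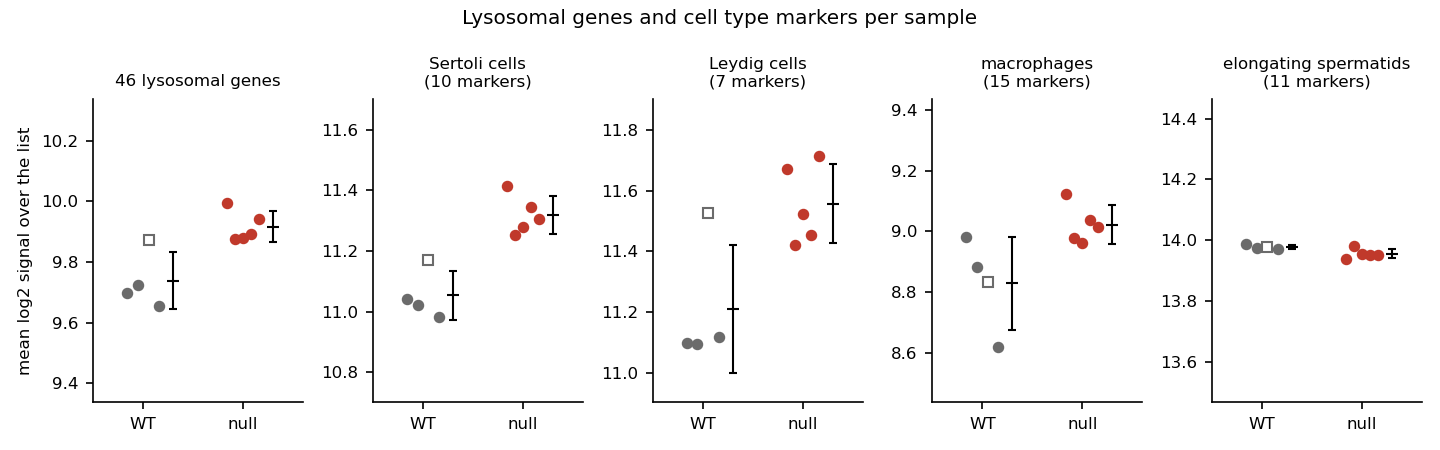
Mean log2 signal (y axis, a range of 1 log2 unit in each panel) over the 46 lysosomal genes and over marker lists of 4 cell types, per sample, with mean and SD beside the points. Grey points are WT samples, the open square is WT replicate 3 and red points are Tmem203 null samples. The Sertoli cell panel separates the genotypes, the Leydig cell panel does so except for WT replicate 3, and the elongating spermatid panel spans 13.94 to 13.99.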

How the data were processed

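Total RNA of 4 WT and 5 Tmem203 null testes was measured, 1 array per sample. The authors deposited a log2 signal for each probe set, obtained with Robust Multichip Average (background adjustment, quantile normalization, probe set summary). The submitters' processing notes name limma. Scans were not used here, so background and scan batch could not be varied, and depth has no counterpart on arrays, where the number of samples limits precision.

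The table held 45101 probe sets; 64 controls were left out. Null and WT were compared with limma 3.58.1 (lmFit, eBayes) in R 4.3.3, with Benjamini-Hochberg adjustment over 45037 probe sets and a threshold of 0.05. The study's further thresholds, also applied, were a 1.5-fold change and detection, meaning 1 or more arrays with a log2 signal of 5 or higher (32 on the linear scale). Gene symbols came from the platform annotation: 34945 probe sets had 1 symbol, 932 several and 9160 none, and 34741 matched RefSeq by Entrez identifier. Per gene the probe set with the highest mean was used.

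Genes named are those that passed, the 3 largest other estimates per role, and up to 3 per wider list and direction; others named were chosen after their values were seen. The members and lists were chosen with earlier results of these data known, and no test was run over a list. Promoter windows were searched in Python 3.11.15. Tested on simulated data for this comparison (45037 probe sets), the procedure recovered 3 of 50 changes of 1.2-fold, 27 of 50 of 1.35-fold, 31 of 50 of 1.5-fold and 47 of 50 of 2-fold. The simulation used independent noise and changed only these few probe sets, while 1856 passed higher and 1511 lower in the data. A call in the simulation thus needed a smaller p, and the recovered numbers do not measure the sensitivity of the comparison itself. The 18 alternatives covered scaling, variance model, array weights, detection, choice of probe set, a replicate block and each sample left out.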

Additional observations from a re-analysis of the deposited data

Results flagged for a closer look

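In 5 of the 92 groups of samples examined (46 genes in each genotype), 1 sample lay farther from its nearest neighbour than Dixon's 95% critical value allows, where chance gives about 1 in 20 groups. Ctsh in WT replicate 3 was at 10.33, with the next WT sample at 9.44 and the lowest at 9.26. Ctsa in null replicate 1 was at 9.25, with the next null sample at 8.97. Smaller gaps in narrow groups were those of Manba in null replicate 3 (9.71, next 9.64), Glb1 in null replicate 2 (9.77, next 9.68) and Gm2a in null replicate 4 (13.81, next 13.78).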

How the results depend on the processing

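Lgmn and Scarb2 passed under all 18 alternatives; Ids did not pass with the mean over its probe sets, and Psap did not with a replicate block. Tpp1 passed in 15, Lipa in 10, Ctsb in 9, Asah1 in 8 and Lamp2 in 6 with its direction kept. With the probe set of smallest p, Lamp2 reversed to -0.31 (adjusted p = 0.0136), the 1 lysosomal gene then lower.

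Against 9 lysosomal genes that rose, the number was 14 with array weights, 6 after array medians were subtracted, and 4 to 15 with 1 sample left out. Past 1.5-fold there were 3 with array weights, 2 without probe sets open to cross-hybridization, 2 with the smallest p, 3 with the mean over probe sets, and 1 to 3 with 1 sample left out, against 1. The mean over probe sets gave a median log2 fold change over the lysosomal genes of 0.0796 against 0.15. With 1 sample left out, 6 to 15 genes of the wider list rose and 0 to 2 fell, and 4 to 12 markers rose and 2 to 3 fell. Among all genes 3.18% to 6.87% rose with 1 sample left out. For the other settings in this paragraph, and for all shifts in the counts past 1.5-fold, the share over all genes is not given. Those shifts cannot be set beside it. The cause of these shifts was not tested.

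Both genotypes carry replicate numbers, and the labels do not say whether same-numbered samples share anything. Same-numbered samples deviated with correlations of -0.05 to 0.07 over 4 pairs, and 1 of 4 WT samples correlated best with its own number. With 4 pairs these values cannot show whether the numbers mark a pairing. Null replicate 5 has no WT sample of its number, so under a replicate block it does not enter the estimate. Lgmn, for example, was at 0.73 both under the block and without null replicate 5. With the replicate block, under which 2.11% of all genes rose and 1.71% fell, 3 lysosomal genes rose (Ids, Lgmn and Scarb2), 5 genes of the wider list rose and 0 fell, and 2 markers rose and 1 fell.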
